A study of Mus musculus with 12 samples.

Results

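Transcripts of T cells and natural killer (NK) cells were measured in sorted mouse microglia: Cd3d, Cd3e, Cd3g, Sh2d1a, Cd6, Cd8a, Nkg7, Ctsw, Gzma and Gzmb. They are 10 of the 770 genes in the deposited table and were taken by name, and all 10 were present. They had been picked with the contrast between the P-ERK1/2 High and Low samples in view, in which Cd3e has the highest log2 difference of the deposited values. Their values in the comparisons that use the High samples are therefore a description and carry no test.

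RNA was counted on a NanoString nCounter, in which a colour-coded probe is counted for each target molecule without amplification. Each sample held fixed and permeabilised CD11b-enriched cells from the CNS of 2 C57B6 mice, one male and one female, that had received no treatment per the labels, while the study's legend of the figure that shows these samples describes mice given tamoxifen. Microglia were gated in the study's methods as YFP+, CD45 intermediate and Ly6G-, with the reporter under the Cx3cr1 promoter. Cells of aged mice, over 80 weeks old, were sorted into a fraction with high and a fraction with low phosphorylation of the kinases ERK1/2 at Thr202/Thyr204, referred to as P-ERK1/2 High (samples 2, 5, 7 and 8) and P-ERK1/2 Low (samples 3, 6, 9 and 12). Cells of adult mice, 12 to 20 weeks old, were not separated by P-ERK1/2 (samples 1, 4 and 10). Adult sample 11 is marked in the labels as left out for poor quality and is given apart throughout. The labels do not say that the High and Low samples came from different animals, and p-values measure only the spread between samples.

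The T cell receptor cannot signal by itself. It sits in the membrane with the CD3 chains, encoded by Cd3d, Cd3e and Cd3g, whose cytoplasmic tails are phosphorylated when antigen is bound. In T cells the 3 chains are made together, since the receptor is retained inside the cell until the complex is assembled. SAP, encoded by Sh2d1a, is an adaptor of the SLAM receptors of T and NK cells, CD6 is a surface receptor of T cells, and CD8 alpha is the coreceptor of cytotoxic T cells. Nkg7, Ctsw, Gzma and Gzmb encode proteins of the granules with which cytotoxic T cells and NK cells kill, a granule membrane protein, a cathepsin and 2 granzymes. Few T cells are present in the healthy young brain parenchyma, and more have been described in the aged brain.

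The 3 CD3 genes lie side by side on mouse chromosome 9, and the sequence before each start is shown because the 3 genes differ in what follows although they are neighbours. Whether these sequences have a part in those differences was not tested. In the RefSeq annotation (build GRCm38.p6), the starts of Cd3g and Cd3d are 1355 bases apart and the genes run away from each other, the start of Cd3e is 27825 bases from that of Cd3d and Cd3e runs towards it, and 0 other protein-coding genes lie between them. The bases from 250 to 53 before each start are given 5′ to 3′ on the strand of the gene, with matches to GATAAG (the GATA motif) and GGAAGT (the ETS motif), on either strand, in capitals.
Cd3g, minus strand, chr9:44980484-44980681: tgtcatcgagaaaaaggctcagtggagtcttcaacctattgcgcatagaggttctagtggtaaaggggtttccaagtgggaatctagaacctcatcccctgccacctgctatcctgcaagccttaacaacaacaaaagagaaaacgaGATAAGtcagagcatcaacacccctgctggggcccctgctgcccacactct
Cd3d, plus strand, chr9:44981536-44981733: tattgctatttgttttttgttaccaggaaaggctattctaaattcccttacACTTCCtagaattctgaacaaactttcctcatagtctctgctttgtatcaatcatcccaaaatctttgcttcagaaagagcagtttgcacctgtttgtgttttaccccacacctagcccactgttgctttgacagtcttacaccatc
Cd3e, minus strand, chr9:45009664-45009861: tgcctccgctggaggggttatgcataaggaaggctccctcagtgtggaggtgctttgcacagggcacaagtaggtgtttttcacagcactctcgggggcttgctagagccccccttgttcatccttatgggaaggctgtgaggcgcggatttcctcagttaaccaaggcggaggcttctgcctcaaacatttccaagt
GATAAG was found 1 time before Cd3g and is held by 5.45% of the 32851 promoter windows of this length, and GGAAGT was found 1 time before Cd3d, as its reverse ACTTCC, and is held by 14.4%. The RUNX core TGTGGT, held by 11.4% of the windows, and the E-box CAGCTG, held by 10.2%, were in none of the 3 sequences, and Cd3e had 0 matches to any of the 4 motifs. The share of G and C was 50% before Cd3g, 38.9% before Cd3d and 55.1% before Cd3e.

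Depth differed between the groups. The deposited values are counts multiplied by 1 factor for each sample, which sets the housekeeping genes to the same level, so that the counts could be recovered. The recovered counts summed to 650965 to 1539936 in the High samples, 123798 to 157209 in the Low samples and 137980 to 326575 in the adult samples. The 8 probes without a target, which show what a probe gives by itself, averaged 13.7, 10.3 and 11.4 counts in these groups. A count is called above background here where it exceeds the mean + 2 SD of the 8 probes in its own sample, which was 20.6 to 41.9 counts over the 11 samples. Since the factor was larger in samples with fewer counts, the same probes differed on the deposited scale, by a median log2 difference of −1.39 between High and Low, 0.63 between Low and adult and −0.69 between High and adult. For genes near background, a difference in deposited value of this size and sign is therefore seen for probes with no target. In adult sample 11 the positive control probes gave a geometric mean of 286 counts, against 954 to 1460 in the 11 other samples, while the recovered counts summed to 1464449 and 16 genes, including Nkg7, are listed at exactly 1.

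Most of the 10 transcripts were near background, and Cd3e was not. No member exceeded background in any Low sample. In the adult samples, Ctsw was above background in 3 of 3 and Cd3e in 1 of 3, and the other 8 members in 0 of 3. In the High samples, Cd3e, Sh2d1a and Ctsw were above background in 4 of 4, Cd3d, Cd3g and Nkg7 in 3 of 4 and Gzmb in 2 of 4. Cd6, Cd8a and Gzma were not above background in any of the 11 samples, so their levels are known only as bounds. Every gene of the table was tested and no filter on low values was applied.

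**Figure D1:**
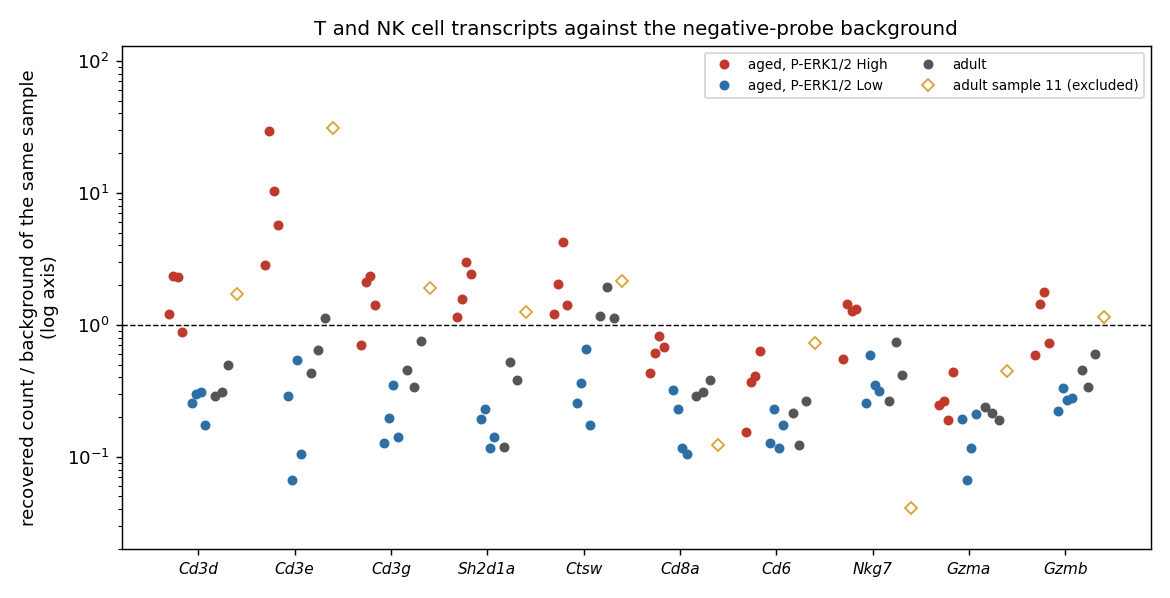
Recovered count of each transcript divided by the background of the same sample, on a log axis, where each point is 1 sample and the dashed line marks a count equal to background. Cd3e in the High samples lay at 2.84 to 29.7 times background, while Cd6, Cd8a and Gzma lay under the line in every sample.

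Cd3e encodes the CD3 epsilon chain, which pairs with both the delta and the gamma chain. Its recovered counts were 92, 1120, 325 and 118 in High samples 2, 5, 7 and 8, 9, 2, 14 and 3 in Low samples 3, 6, 9 and 12, and 18, 21 and 30 in adult samples 1, 4 and 10. The deposited values were 112, 801, 365 and 149.5 in the High samples, 30.5, 7.01, 37.45 and 12.3 in the Low samples, and 40.8, 24.45 and 74.1 in the adult samples. In counts and on the deposited scale, every High sample was above every Low and every adult sample, and the Low and adult samples overlapped. The separation from adult depended on the scale. As a share of the summed counts of each sample, Cd3e in High samples 2 and 8 was under adult sample 10. High and adult thus overlapped on that scale, while every High sample stayed above every Low sample. The mean value was 357 ± 316 (SD, n = 4) in High, 46.5 ± 25.3 (n = 3) in adult and 21.8 ± 14.5 (n = 4) in Low. High stood first in this order, and adult and Low, next to each other, did not differ beyond their spread. As these are bulk samples, more cells with the transcript and more transcript per cell cannot be told apart.

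On the deposited scale, Cd3e had the highest log2 difference between High and Low among all 770 genes, 3.81 ± 0.63 (SE). The Low samples being under background, the difference is a bound, and Cd3e was at least 2.69-fold higher in High when background stood in for the Low counts. Against adult the log2 difference was 2.62 ± 0.62, rank 36 of 770. The spread among the High samples was wide, as sample 5 was 7.15-fold above sample 2. Without sample 5 the log2 differences were 3.28 against Low and 2.09 against adult. The values rest on how low counts are treated, since the difference between High and Low became 1.95 with counts under 20 raised to 20 and 1.43 with counts under background raised to background, both still called. The first rank was kept with neither, as Ppp3r1, above background in every High and Low sample, was at 2.39.

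The other CD3 chains were low in all groups. Cd3d, the delta chain, had 39, 88, 73 and 18 counts in the High samples, 8, 9, 8 and 5 in the Low samples and 12, 10 and 13 in the adult samples. High sample 8 was under its background of 20.6 counts, and on the deposited scale, at 22.8, it fell among the Low samples (20.5 to 31.6). Cd3g, the gamma chain, had 23, 80, 74 and 29 counts in the High samples, 4, 6, 9 and 4 in the Low samples and 19, 11 and 20 in the adult samples. On the deposited scale, the High samples (28.0 to 83.1) were above the Low samples (13.6 to 24.1) and overlapped the adult samples (12.8 to 49.4).

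**Figure D2:**
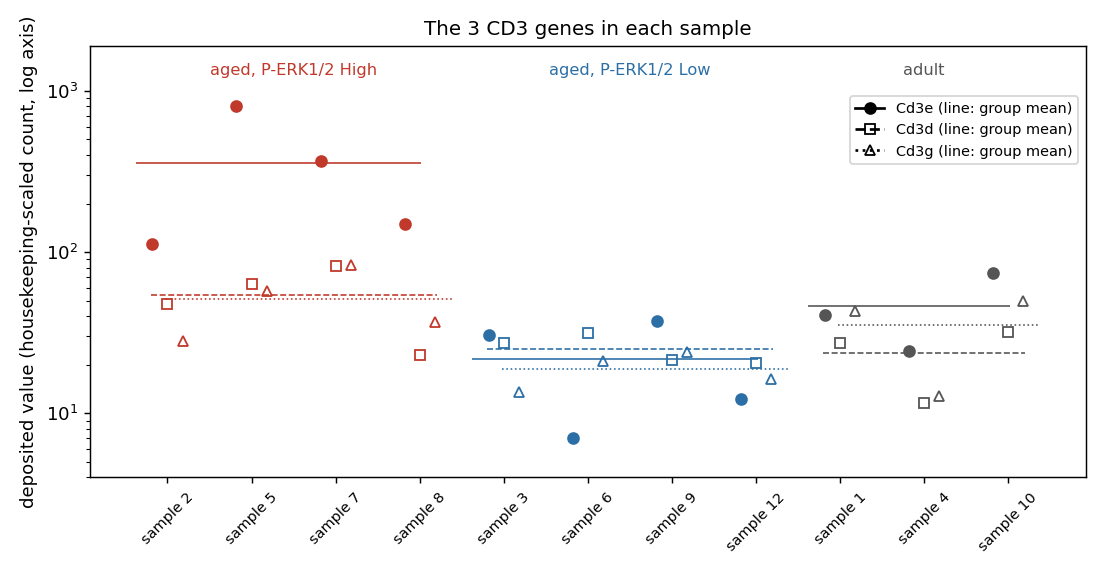
Deposited value of the 3 CD3 genes in each sample, on a log axis, with a horizontal line at the mean of each gene in each group. Cd3e ran from 112 to 801 in the High samples, where Cd3d and Cd3g stayed at 22.8 to 83.1, and the 3 genes lay within 7.01 to 74.1 in the Low and adult samples.

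Between High and Low, the log2 difference was 0.95 ± 0.35 for Cd3d, 1.31 ± 0.33 for Cd3g and 3.81 for Cd3e. All 3 were measured against Low samples under background, and with counts under background raised to it they were −0.94, −0.92 and 1.43. In each sample, the log2 value of Cd3e was set against the mean log2 value of Cd3d and Cd3g. Probes differ in efficiency, so the difference within 1 sample says nothing of which transcript is more abundant, and only its change between samples is given. It was 1.59, 3.72, 2.13 and 2.33 in High samples 2, 5, 7 and 8, 0.64, −1.74, 0.70 and −0.54 in the Low samples, and 0.25, 0.95 and 0.88 in the adult samples. The lowest High sample was above the highest Low and adult samples, and the group means were 2.44 ± 0.91 (SD, n = 4), −0.24 ± 1.15 (n = 4) and 0.69 ± 0.39 (n = 3). The Low values come from counts under background for all 3 genes. With counts under 20 raised to 20, the High mean was 2.42 and the adult mean 0.21, while the Low samples were at 0 by construction, since all 3 genes were set to 20 there. Between Cd3d and Cd3g, the log2 difference ranged from −0.66 to 0.74 in the High samples and from −0.16 to 0.95 in the Low samples.

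The order of the High samples depended on the scale, and is given for the 7 members above background in a High sample. On the deposited scale, sample 7 was highest for Cd3d, Cd3g, Sh2d1a, Ctsw, Nkg7 and Gzmb, and sample 5 for Cd3e. In counts, sample 5, the deepest, was highest for Cd3d, Cd3e, Cd3g and Nkg7. The deposited value of Cd3e in sample 5 was 7.15 times that in sample 2. Of the other members, Cd3d, Sh2d1a and Ctsw were above background in both samples, and their ratios were 1.33, 0.936 and 1.16.

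On the deposited scale, Sh2d1a had the second highest log2 difference among the members between High and Low, and between High and adult. Its counts were 37, 59, 94 and 50 in the High samples, 6, 7, 3 and 4 in the Low samples and 5, 17 and 10 in the adult samples. Every High sample was above its background and above every Low and adult sample on the deposited scale (42.2 to 106 against 8.03 to 24.7). The log2 difference was 1.83 ± 0.37 against Low and 1.70 ± 0.37 against adult. With background standing in for the counts of the Low or adult samples, the High samples did not exceed it by any fold, so no fold is given. Between High and Low, the second rank was lost with counts raised to 20 or to background. Sh2d1a was then at −0.17 and −0.70, under Ctsw at −0.13 and −0.65.

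Ctsw, which encodes cathepsin W of cytotoxic granules, was the only member above background in every adult sample. Its counts were 49, 63 and 30 in adult samples 1, 4 and 10, all above background, 39, 77, 135 and 29 in the High samples, and 8, 11, 17 and 5 in the Low samples. On the deposited scale the adult samples stood at 111, 73.4 and 74.1, and the High samples at 47.5, 55.0, 152 and 36.7, so that 3 of the 4 High samples were under all adult samples and sample 7 was above them. The Low samples stood at 27.1, 38.6, 45.5 and 20.5, under every adult sample, and overlapped the High samples. Ctsw differed by log2 0.95 ± 0.41 between High and Low and by −0.44 ± 0.43 between High and adult.

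The remaining members showed little beyond background. Nkg7 had 18, 54, 40 and 27 counts in the High samples against 8, 18, 9 and 9 in the Low samples and 11, 24 and 11 in the adult samples. Gzmb had 19, 54, 56 and 15 counts in the High samples, with samples 5 and 7 above background, against 7 to 10 in the Low samples and 11 to 19 in the adult samples. The other 3 were lower still, with at most 26 counts for Cd8a, 14 for Cd6 and 10 for Gzma in any of the 11 samples. On the deposited scale, these 5 genes overlapped between all groups, and the log2 differences between High and Low ran from −0.56 (Gzma) to 0.26 (Gzmb).

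A gene was called different at an unadjusted p under 0.01 and a log2 difference beyond 1 in a limma fit over all 770 genes, the study's thresholds. Between High and Low, 3 of the 10 members were called higher (Cd3e, Sh2d1a and Cd3g) and 0 lower, where 28.2% of all genes were called higher and 9.61% lower (37.8% in all). The same 3 members were those without overlap between High and Low, as 31.3% of all genes were in this direction. The median log2 difference was 0.60 over the members, 0.26 over the 9 members other than Cd3e and 0.26 over all genes. Between High and adult, Cd3e and Sh2d1a were called higher and 0 members lower, where 29.2% of all genes were called higher and 7.66% lower. These members were also those without overlap on the deposited scale, with 35.1% of all genes in this direction and 50.3% in either. The median was 0.26 over the members and 0.35 over all genes. These comparisons share the High samples and their members were chosen on them, and nothing is read from the counts.

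**Figure D3:**
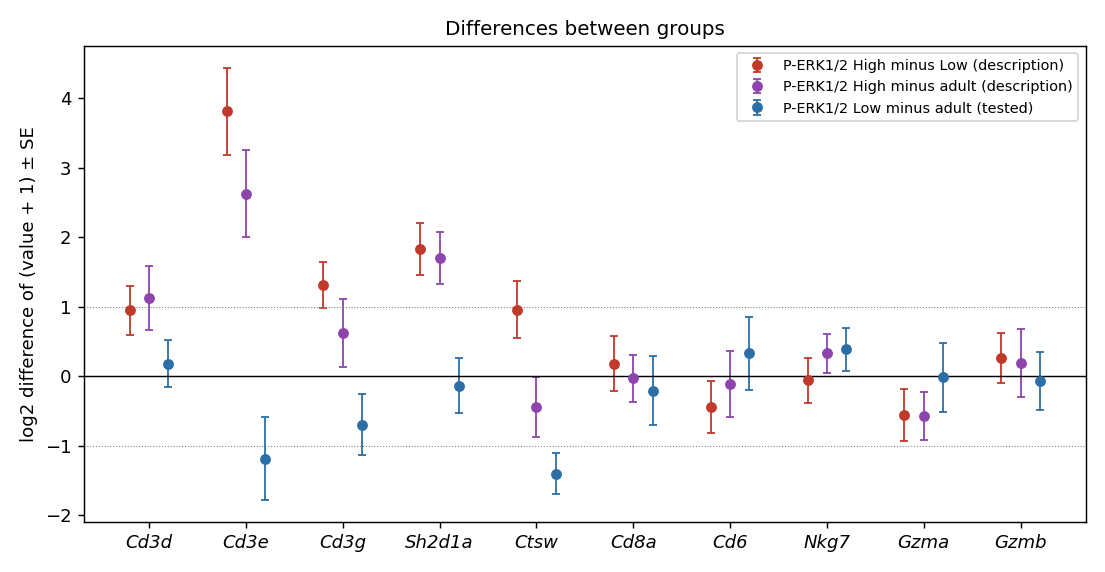
Log2 difference of (deposited value + 1) with its standard error for each member in the 3 comparisons, with dotted lines at −1 and 1. Cd3e was at 3.81 and 2.62 in the comparisons with High, Sh2d1a at 1.83 and 1.70, and Ctsw was at −1.40 between Low and adult.

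The aged Low samples were tested against the adult samples, a comparison that holds no High sample. The Low samples were part of the contrast in view when the members were picked. The p-values of the members here are therefore not independent of that choice. As the adult cells were not separated by P-ERK1/2, age and the sort cannot be told apart in this comparison. Of the 10 members, 0 were called higher and 1 lower, where 8.05% of all genes were called higher and 2.73% lower. The member called was Ctsw, with a log2 difference of −1.40 ± 0.29 (limma, unadjusted p = 0.00143, Benjamini-Hochberg adjusted p = 0.0107 over 770 genes). It was lower in 4 of 4 Low samples than in every adult sample, as for 10.4% of all genes. No Low sample was above background, and with counts under background raised to it the log2 difference turned to 0.21, so no fold is given. The call was also lost with counts under 20 raised to 20 (−0.32) and with adult sample 11 added (−1.14).

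Cd3e did not pass between Low and adult (log2 difference −1.18 ± 0.59, limma adjusted p = 0.182), nor did Cd3g (−0.70 ± 0.44, adjusted p = 0.285). The log2 differences of the other 7 members ran from −0.21 (Cd8a) to 0.39 (Nkg7). The median over the members was −0.10, beside 0.10 over all genes. Cd3g depended on adult sample 4, where it had 11 counts, as its log2 difference without this sample was −1.29 and was called. No Low or adult sample was above background for Cd3g. With all samples, its log2 difference turned to 0.84 with counts raised to 20 and to 0.65 with counts raised to background.

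The scaling moved the differences of all genes together. Between High and Low, the median log2 difference of all genes was 0.26 on the deposited scale, −0.75 with counts scaled to the same total and 2.15 with counts scaled by the positive control probes. Relative to this median, Cd3e differed by 3.55, 3.53 and 3.42, and by 2.22 and 1.83 with low counts raised to 20 or to background. Sh2d1a relative to the median differed by 1.57, 1.58 and 1.45, and by 0.09 and −0.30 with low counts raised. Cd3g differed by 1.06, 1.07 and 0.95, and by −0.25 and −0.51. Under positive-control scaling 10 of 10 members were called higher between High and Low, as were 659 of all 770 genes. With counts raised to background Cd3e was the only member called higher and 5 were called lower, beside 146 higher and 248 lower among all genes. Against adult, Cd3e was no longer called after total-count scaling, with a log2 difference of 1.22 beside a median of −1.03 over all genes.

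The number of genes called moved with the setting as well. Among all 770 genes, 291 were called between High and Low, and 363 with counts under 20 raised to 20 (165 higher), 394 with counts raised to background (146 higher), 659 with positive-control scaling (all higher), 370 with total-count scaling (59 higher), 243 with pseudocount 20 and 259 of 569 with the filter on a mean value of at least 50. In High against adult 284 were called, and 256 with counts raised to 20, 235 with counts raised to background, 421 with positive-control scaling, 402 with total-count scaling (40 higher), 234 with pseudocount 20, 281 with quantile normalization, 49 with sample 11 added and 256 of 579 with the filter. In Low against adult 83 were called (62 higher, 21 lower), and 68 with counts raised to 20 and 57 with counts raised to background. With positive-control scaling 226 were called (8 higher, 218 lower) and with total-count scaling 83 (24 higher, 59 lower), so that most were lower there. Median-of-ratios scaling gave 78, and adding sample 11 gave 34.

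**Figure D4:**
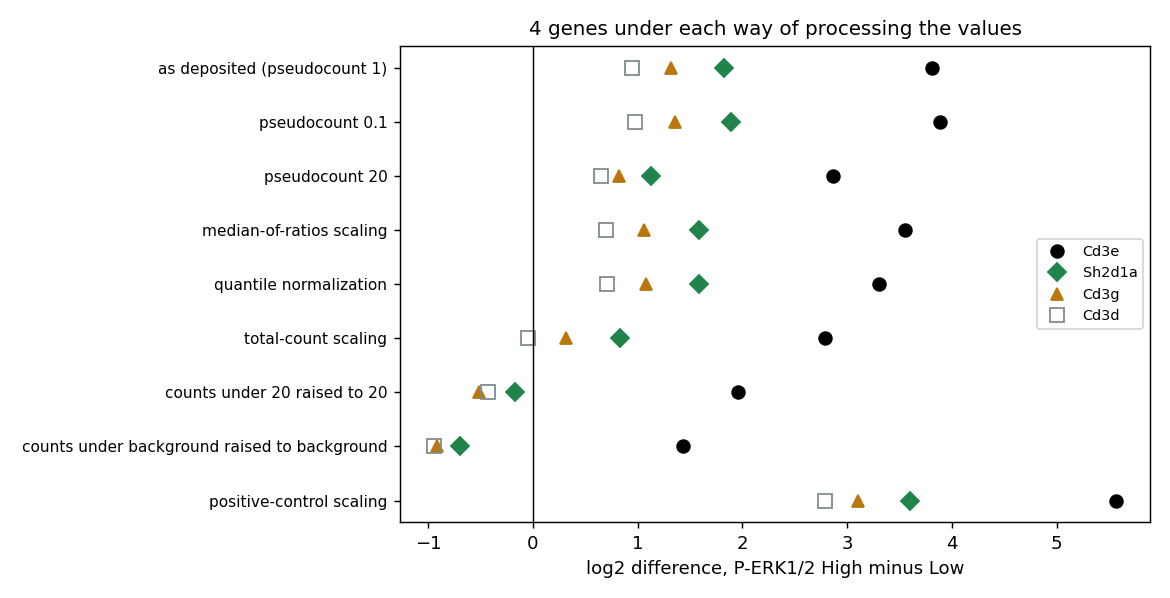
Log2 difference between High and Low for Cd3e, Sh2d1a, Cd3g and Cd3d under each way of scaling the values and of treating low counts. Cd3e lay at 1.43 to 5.57, and the other 3 genes passed below 0 with counts raised to 20 or to background (Cd3d also, at −0.04, with total-count scaling).

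Adult sample 11 was unlike the other adult samples in the same gene. Cd3e had 765 counts there, 31.0 times background, and a deposited value of 593, against 24.45 to 74.1 in the other adult samples and 112 to 801 in the High samples. Cd3d (42 counts), Cd3g (47), Ctsw (53), Sh2d1a (31) and Gzmb (28) were also above the background of 24.6 counts, and Cd6 (18), Gzma (11) and Cd8a (3) were not. The log2 difference of Cd3e from the mean of Cd3d and Cd3g was 4.07, above every other sample. With this sample added, Cd3e differed between High and adult by 1.68 and was not called.

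Of the other T and NK genes of the table, 18 were listed by general knowledge. Between High and Low, 5 were called higher (Kir3dl2, Eomes, Il21r, Xcl1 and Trat1) and 0 lower, where 28.2% of all genes were called higher and 9.61% lower. In High against adult, 5 were called higher (Kir3dl2, Eomes, Xcl1, Prf1 and Cd244) and Lag3 lower, where 29.2% and 7.66% of all genes were. Between Low and adult, 0 of 18 were called by limma, beside 8.05% of all genes higher and 2.73% lower, and 3 of 18 had an unadjusted p under 0.05, as 39.2% of all genes had. Cd244 (log2 difference 0.62, limma adjusted p = 0.0212) and Il21r (−0.83, adjusted p = 0.0186) passed the p threshold and fell short of the log2 difference of 1, and Lag3 was at −0.50 (unadjusted p = 0.0357). Il21r was above background in 3 of 4 Low and 3 of 3 adult samples, and Cd244 in 1 of each. The median log2 differences of the list were 0.64, 0.59 and −0.04, in this order, beside 0.26, 0.35 and 0.10 over all genes.

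Kir3dl2, a killer-cell immunoglobulin-like receptor, came nearest to Cd3e among these. It had 70, 580, 290 and 95 counts in High samples 2, 5, 7 and 8, 6, 11, 5 and 3 in the Low samples, 7, 18 and 20 in the adult samples, and 485 in adult sample 11. The order of the High samples was that of Cd3e. The log2 difference of Kir3dl2 was 3.28 ± 0.51 between High and Low, at least 1.97-fold, and 2.87 ± 0.57 between High and adult, at least 3.09-fold. No Low or adult sample was above background for it, so its rank between High and Low, 6 of 770, is that of the deposited values only. Il21r, the receptor for interleukin 21, had 132, 736, 418 and 201 counts in the High samples, 22 to 32 in the Low samples and 69 to 154 in the adult samples, and 938 in sample 11.

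Eomes and Xcl1, a transcription factor and a chemokine of cytotoxic lymphocytes, were above background in 4 of 4 High samples and in no Low or adult sample. The High samples were deeper and background in counts was similar, so the same share of counts can pass background in High alone. Eomes had 34, 64, 78 and 39 counts in the High samples and at most 9 in the others, and Xcl1 had 34, 69, 95 and 36 counts in the High samples and at most 13 in the others, sample 11 aside. Trat1, which encodes a protein that binds the receptor complex in T cells, had 19, 79, 53 and 30 counts in the High samples, 3 to 8 in the Low samples and 7 to 16 in the adult samples. Klrb1, Klrk1, Kir3dl1, Fasl and Foxp3 were not above background in any of the 11 samples, and Lag3 was above background in 1, adult sample 4.

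**Figure D5:**
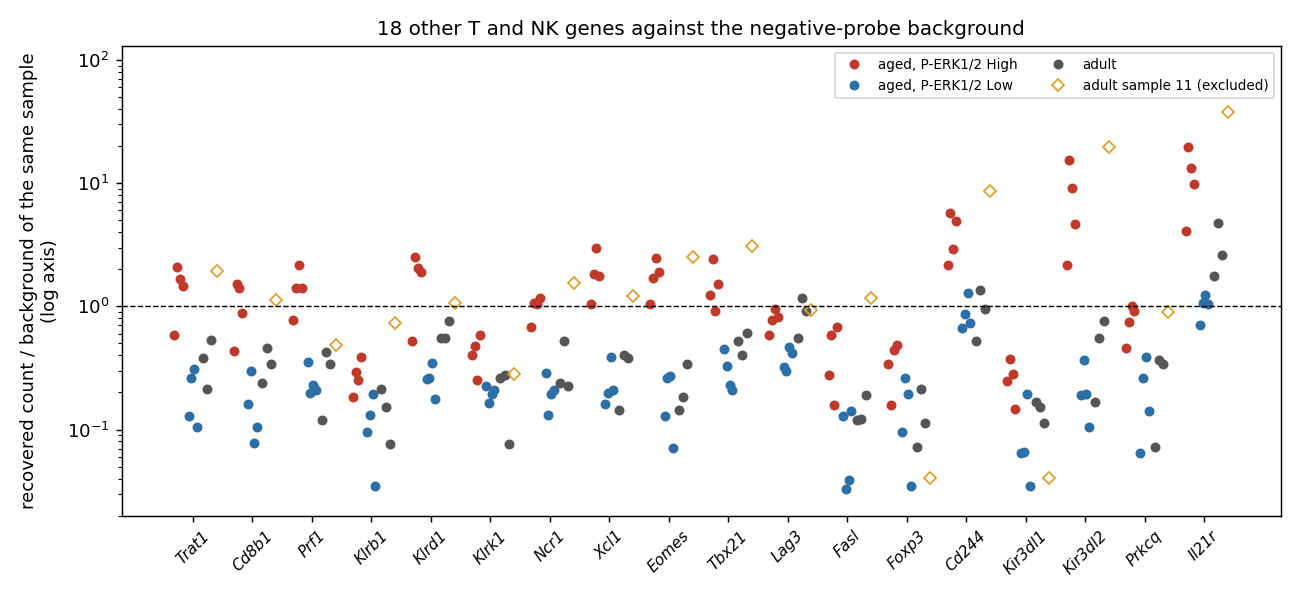
Recovered count of the 18 other T and NK genes divided by the background of the same sample, on a log axis, where each point is 1 sample and the dashed line marks background. Kir3dl2 and Il21r reached 15.4 and 19.5 times background in the High samples, and Klrb1, Klrk1, Kir3dl1, Fasl and Foxp3 stayed under the line in the 11 samples.

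Genes that act below the T cell receptor, 11 of which were listed, are also active in myeloid cells. Between High and Low, 4 were called higher (Ppp3r1, Camk4, Ptprc and Grap) and 2 lower (Was and Vav1), beside 28.2% and 9.61% of all genes. Ppp3r1, the regulatory subunit of the phosphatase calcineurin, had deposited values of 1216 to 3218 in the High samples, 319 to 365 in the Low samples and 220 to 297 in the adult samples. Was, an actin regulator, stood at 60.0 to 159 in the High samples and 305 to 400 in the Low samples. In Low against adult, Was alone was called, higher by 1.11 ± 0.16 (limma, Benjamini-Hochberg adjusted p = 0.00239), where 8.05% of all genes were called higher. In High against adult, 3 were called higher (Ppp3r1, Ptprc and Ppp3ca) and Vav1 lower, beside 29.2% and 7.66% of all genes. The log2 difference of Was between Low and adult fell short of 1 with median-of-ratios scaling (0.99), total-count scaling (0.73) and positive-control scaling (0.30), and it was not called there.

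Markers of other cells were read in the same samples, and their part in the values of Cd3e was not tested. The 8 T cell markers summed to 33.8 to 108 per 100000 counts in the High samples, 24.2 to 42.1 in the Low samples and 29.1 to 81.9 in the adult samples. Without Cd3e they summed to 21.0 to 58.1, 21.8 to 40.6 and 22.7 to 60.2 per 100000 counts, so that the groups overlapped. On the deposited scale and without Cd3e, the sums were 184 to 424, 96.3 to 186 and 86.2 to 205, which also overlapped. On the same scale, the 10 NK and cytotoxic cell markers summed to 245 to 577 in High, 203 to 259 in Low and 211 to 347 in adult, of which 2 to 7, 0 and 1 were above background. The 4 border monocyte and macrophage markers summed to 275 to 836 in High, 149.8 to 217 in Low and 107 to 188 in adult, of which 2 to 3, 0 to 1 and 0 were above background. Per 100000 counts these 4 summed to 37.6 to 76.0, 35.6 to 47.5 and 28.2 to 58.9, so that the groups overlapped. Ly6a, a surface antigen, had 396, 975, 125 and 412 counts in High samples 2, 5, 7 and 8, 24 to 32 in the Low samples, 15 to 30 in the adult samples and 1019 in sample 11, and it was called higher between High and Low (log2 difference 2.09) and between Low and adult (1.33). The scavenger receptor Cd163 was called higher between High and Low (1.15), and 0 of the 4 were called lower, beside 28.2% and 9.61% of all genes. In High against adult, Ly6a (3.42) and Cd163 (1.28) were called higher and 0 of the 4 lower, beside 29.2% and 7.66%. Cd209e was above background in none of the 11 samples and Ccr2 in 3 High samples. The 8 mast cell and neutrophil markers summed to 230.1 to 523 in High, 245 to 271 in Low and 243 to 358 in adult, of which 2 to 3, 0 to 1 and 1 were above background. Hdc (2.30) and Ceacam3 (1.59) were called higher between High and Low and 0 of the 8 lower, beside 28.2% and 9.61% of all genes. In High against adult, Hdc (2.20) and Ceacam3 (1.46) were called higher and Csf3r lower (−1.03), beside 29.2% and 7.66%. Csf3r, the receptor for granulocyte colony-stimulating factor, was above background in 10 of the 11 samples and was at −0.59 between High and Low, not called. Cpa3, Ms4a2, Tpsb2, Ly6g and Fpr1 were above background in none of the 11 samples, although Cpa3 was called higher between Low and adult. Blk, a kinase of B cells that was picked out after its values were seen, had 85, 175, 232 and 83 counts in High samples 2, 5, 7 and 8, all above background, 8 to 23 in the Low samples and 22 to 26 in the adult samples, none above it. It was called higher between High and Low (1.45) and between High and adult (1.57), as were 28.2% and 29.2% of all genes. The other B cell genes are not described.

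The 9 microglia markers stood for the labelled cell type. Of these, 8 were above background in every High sample, 3 to 6 in the Low samples and 5 to 8 in the adult samples, with Slc2a5 in none. The High samples were deeper. Per 100000 counts the 9 markers summed to 278 to 487 in High, 731 to 807 in Low and 1003 to 1125 in adult. On the deposited scale the sums were 2867 to 3562, 3392 to 3713 and 3539 to 3835, which overlapped. In High against Low, 4 were called higher (Tmem119, P2ry12, Sall1 and Gpr34) and 0 lower, beside 28.2% and 9.61% of all genes. Csf1r was under the Low samples in every High sample, with a log2 difference of −0.84, and Fcrls, Cx3cr1, Olfml3 and Slc2a5 were at 0.74, 0.04, −0.09 and −0.53. Between Low and adult, Fcrls, Olfml3 and Tmem119 were called lower and 0 markers higher, beside 2.73% and 8.05% of all genes. In High against adult, P2ry12 was called higher and Olfml3 and Fcrls lower, beside 29.2% and 7.66%.

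The genes whose log2 values followed Cd3e most closely over the 11 samples were Plekhm1 (Pearson r = 0.956), Kmt2c (0.951), Tbc1d4 (0.945), Creb1 (0.941) and Homer1 (0.940), and Cd3g was the first member at rank 149 of 769 (r = 0.781). The points share the group, the depth and the scaling factor of each sample, and 19 genes had r above 0.9. Plekhm1 had deposited values of 527, 977, 837 and 732 in High samples 2, 5, 7 and 8, 312 to 340 in the Low samples and 354 to 472 in the adult samples, so it stood in the same order of groups over a narrower range. When counts under 20 were raised to 20, the 5 closest genes became Kir3dl2, Ncf1, Trem3, Cdc7 and Amigo2, and 0 of the former 5 were among them.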

How the data were processed

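The authors counted 757 genes of a neuroinflammation panel and 13 housekeeping genes on a NanoString nCounter and scaled them in nSolver, of a version not given in the sources used here. The deposited signal of a gene is its count multiplied by 1 factor per sample, while the rows of the 8 negative and 6 positive control probes hold raw counts. From these values the factor was recovered as the step between low values. With it, all values of the 11 samples used, and 99.8% of those of the 12 samples, came out within 0.1 of a whole count. All 10 members carry current RefSeq symbols.

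The deposited values were compared as log2(value + 1), with only the groups compared in each fit, in limma 3.58.1 (R 4.3.3), and folds on that scale understate the change of low genes. A call needed an unadjusted p under 0.01 and a log2 difference beyond 1, and adjusted p is Benjamini-Hochberg over 770 genes. The fit was tested on simulated data. Low against adult was the comparison tested. The genes named are the 10 members, those of the lists described and the 5 closest to Cd3e. The members and lists were chosen with earlier results of these data known. Alternatives changed the pseudocount (0.1 or 20), the filter (mean value of at least 50), the scaling, the floor under low counts, the samples and the threshold. A "bound" fold sets the mean of the brighter group against that of the dimmer group with counts under background raised to background. Promoter windows came from RefSeq (7 of 10 members matched). The B cell marker list is not reported here.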

Additional observations from a re-analysis of the deposited data

Results flagged for a closer look

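In the 4 High samples, sample 7 stood apart for Ctsw, with a deposited value of 151.59, where its gap to the next sample made up 0.841 of the range of the group. The same held for Cd8a in sample 7, with a value of 29.2 and a gap of 0.898 of the range, although Cd8a was not above background in that sample. Such gaps were looked for in 20 groups of 4 samples (10 members in High and in Low) and found in these 2, while chance gives about 1 in 20.

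Adult sample 11, left out of the comparisons, had signals above those of the other adult samples for 2 members above its background. Cd3e was at 593.38 there, against a highest value of 74.1 in the other adult samples, and Cd3d at 32.58, against 32.1.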

How the results depend on the processing

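Values near background limit what these 10 genes can show, since 3 of them were not above background in any sample used and no member was in a Low sample. No paired analysis was possible because each sample number occurs in 1 group and the groups share none. A count model on the recovered counts (edgeR) was planned and not run. Scaling by the positive control probes and raising counts to background were chosen after the data had been seen. The cause of the changes below was not tested, except that the filter on a mean of at least 50 left 1 or 2 members and 3 of the other T and NK genes to test.

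Members called between High and Low were 3, and 1 with the filter, 10 with positive-control scaling and 6 with counts raised to background (1 higher, 5 lower). With total-count scaling they were 3 as well (1 higher, 2 lower), with counts raised to 20 they were 4 (1 higher, 3 lower), and leaving out 1 sample gave 3 to 4. Between Low and adult 1 was called, and 0 with counts raised to 20, 0 with sample 11 added, 0 with counts raised to background and 3 with positive-control scaling. Among all genes these settings gave 83, 68, 34, 57 and 226. Leaving out 1 sample gave 1 to 2 members (2 without adult sample 4). Between High and adult 2 members were called, and 1 with the filter, 1 with counts raised to 20, 1 with sample 11 added, 1 with counts raised to background and 5 with positive-control scaling. Among all genes these settings gave 284, 256 of 579, 256, 49, 235 and 421. Leaving out 1 sample gave 2 to 3 members, and without High sample 8 Cd3d was called too, as it was against Low. With total-count scaling 3 members were called, all lower, beside 40 higher and 362 lower among all 770 genes.

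Other T and NK genes called between High and Low were 5, and 3 with pseudocount 20, 2 with the filter, 3 with total-count scaling (1 higher, 2 lower), 10 with counts raised to 20 (2 higher, 8 lower), 18 with positive-control scaling and 13 with counts raised to background (1 higher, 12 lower). Between Low and adult they were 0, and 1 with total-count scaling, 5 with positive-control scaling and 0 to 1 without 1 sample (1 without adult sample 1 and 1 without adult sample 4). Between High and adult 6 of the list were called, and 3 with pseudocount 20, 2 with the filter, 1 with total-count scaling, 2 with counts raised to 20, 2 with sample 11 added, 14 with positive-control scaling and 2 with counts raised to background. Among all genes these settings gave 284, 234, 256 of 579, 402, 256, 49, 421 and 235. The T cell receptor signalling genes called between Low and adult were 1, and 0 with median-of-ratios scaling, 0 with total-count scaling and 2 with positive-control scaling, beside 83, 78, 83 and 226 of all genes. Between High and adult 4 signalling genes were called, and 2 with quantile normalization, 0 with sample 11 added and 7 with positive-control scaling, beside 284, 281, 49 and 421 of all genes. Leaving out 1 sample gave 2 to 5 of them (2 without adult sample 10).

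The 9 members other than Cd3e each turned sign in at least 1 setting of the comparisons with High, in which Cd3e kept its sign. With counts raised to 20 and to background, Cd3g went to −0.51 and −0.92 between High and Low, Sh2d1a to −0.17 and −0.70, Cd3d to −0.43 and −0.94 and Ctsw to −0.13 and −0.65. With counts raised to background, Sh2d1a went to −0.048, Cd3d to −0.29 and Cd3g to −0.26 between High and adult, and Ctsw to 0.21 between Low and adult. Total-count scaling turned Cd3d (−0.04) and Ctsw (−0.05) between High and Low and Cd3d (−0.24) and Cd3g (−0.75) between High and adult, and positive-control scaling turned Ctsw (0.71) between High and adult. In Low against adult, Cd3e went from −1.18 to 0.62 and 0.59, and Cd3g and Sh2d1a went to 0.84 and 0.65, with counts raised to 20 and to background. Cd3d turned there with total-count (−0.20) and positive-control scaling (−0.55).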
